A study of Mus musculus with 20 samples.

Results

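RNA sequencing of mouse islets with deletion of Mfn1 in β-cells (β-Mfn1KO, 4 libraries) was compared with that of control islets (Ctrl, 6 libraries), as 10 of the 20 libraries of a series that also holds 5 β-Mfn2KO and 5 β-Mfn1/2DKO libraries. The members were the 4 libraries titled as Mfn1 knockouts and the 6 titled as controls, and every gene of the count table was tested. All mice were 12 weeks old and on a C57BL/6N background, and islets were kept in culture for 24 hours before RNA was taken. β-Mfn1KO mice carried floxed Mfn1 alleles and the Ins1-Cre driver (the labels give the genotype as Mfn1-/-, with 3 female and 1 male mouse). β-Mfn2KO mice carried floxed Mfn2 with the same driver, and β-Mfn1/2DKO mice carried both floxed genes with it. The labels call the 3 female and 3 male Ctrl mice wild type, while the study took as controls littermates with either Cre or floxed genes but not both, and the labels do not say which library came from which. Ins1-Cre acts in β-cells, so the α-, δ- and PP-cells and the non-endocrine cells of the same islet keep Mfn1. Totals were 12400687 to 20329064 counts in Ctrl and 15745680 to 16685381 in β-Mfn1KO, and the sex label matched the sex-linked genes in 20 of 20 libraries. The labels do not say that each library came from its own mouse, so p-values measure the spread between these samples. Every marker of β-, α-, δ- and PP-cells examined was detected.

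Mfn1 is one of a pair of large GTPases of the outer mitochondrial membrane that tether and fuse neighbouring mitochondria, and Mfn2 is its partner and close relative. Opa1 fuses the inner membrane, while Dnm1l (Drp1) divides mitochondria after Fis1 and Mff recruit it to their surface. β-cells depend on mitochondria to couple glucose oxidation to insulin release, which makes genes of respiration, insulin and calcium handling the families of interest.

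The conditional Mfn1 allele has loxP sites around exon 4, which holds most of the G1 motif of the GTPase domain, the stretch that binds the phosphates of GTP. The exon is printed because it is what the Cre driver removes. It is exon 4 of 18 in Mfn1-201, coding, on the plus strand of GRCm38 at chr3:32538270-32538432, and its 163 bases leave 1 base beyond whole codons. Capitals mark the 19 bases of the 24-base G1 motif that lie in this exon, and the other 5 are in exon 3.
Mfn1 exon 4: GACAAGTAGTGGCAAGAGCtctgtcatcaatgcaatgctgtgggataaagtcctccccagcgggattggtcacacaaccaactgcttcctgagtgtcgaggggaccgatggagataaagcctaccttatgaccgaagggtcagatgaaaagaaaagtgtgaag

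Loss of Mfn1 was plain in every library. On the scale of counts normalized by TMM (trimmed mean of M-values, the scaling of edgeR), Mfn1 (ENSMUSG00000027668, chr3:32529465-32579239) had a lowest of 1518, a median of 1693 and a highest of 1807 in Ctrl. The scale is that of the mean library of all 20, so values exceed the counts behind them in both groups. The 4 β-Mfn1KO libraries held 770.4, 621, 631 and 674, all of them below the lowest Ctrl library. The log2 fold change was −1.31 ± 0.11 (SE), with an adjusted p of 6.58e-07 over 28632 genes (Benjamini-Hochberg, edgeR's quasi-likelihood test). β-Mfn2KO libraries stayed at 1682 to 1807 and β-Mfn1/2DKO libraries at 687 to 1062. Counts are per gene, so the loss of exon 4 itself could not be read, and in bulk islets fewer cells that express a gene and less RNA per cell cannot be told apart.

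Of the other core fusion and fission genes, Opa1, Dnm1l, Fis1 and Mff moved little. Opa1 was 3233, 3524, 3303, 3224, 3086 and 3281 in Ctrl and 3079, 2854, 3415 and 3019 in β-Mfn1KO, a log2 fold change of −0.083 ± 0.052 (SE) with an adjusted p of 0.737. Dnm1l changed by 0.043 ± 0.054 (SE), Fis1 by 0.16 ± 0.068 (SE) and Mff by 0.13 ± 0.054 (SE) on the log2 scale, with adjusted p of 0.867, 0.635 and 0.637. Both groups overlapped in all 4 genes. Mtfp1, which promotes fission from the inner membrane, was 1027, 1034, 924 and 915 in β-Mfn1KO against 747, 793, 939, 758, 810.2 and 775 in Ctrl. Only the third Ctrl library reached the β-Mfn1KO range, and the log2 fold change of 0.28 ± 0.07 (SE) had an unadjusted p of 0.000601 and an adjusted p of 0.433. Of the 23 genes of the fusion and fission list, 16 were higher and 7 lower, and Mfn1 was the only member below an adjusted p of 0.05. At an unadjusted p under 0.05, 4 were higher and 1 lower, and the highest log2 fold change of the list was 0.605. Mfn2, given below with its stretch of chromosome 4, was higher by 0.31 on the log2 scale (adjusted p = 0.433).

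Few single genes separated the groups. Calls needed an adjusted p under 0.05 with more than a 1.5-fold change, and 7 of 28632 genes (0.0244%) met both. Mfn1, Ins1, Masp2, Zfp990, Eno1b and Gm4735 were lower in β-Mfn1KO and Rbm20 was higher. Vamp3 passed the adjusted p with a fold change under 1.5, which makes 8 genes or 0.0279%. Without the first Ctrl library 21 genes were called, all 7 of the above among them. The count fell to 4 without the fourth Ctrl library, 3 without the fifth, 4 without the second β-Mfn1KO library and 3 without the fourth. The fit to the 10 libraries alone called 3 (Mfn1, Eno1b and Zfp990), while the fit to female libraries, 3 against 3, called 148 with 6 of the 7 among them. At an unadjusted p under 0.05, 1126 genes were higher and 1004 lower, 7.44% of all genes. Scaling by total counts instead of TMM gave 681 higher and 1126 lower. Among the 16449 genes whose mean normalized count was 10 or more this share was 10.3% (5.68% higher and 4.62% lower), and 49.9% of these genes had a log2 fold change above 0.

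**Figure D1:**
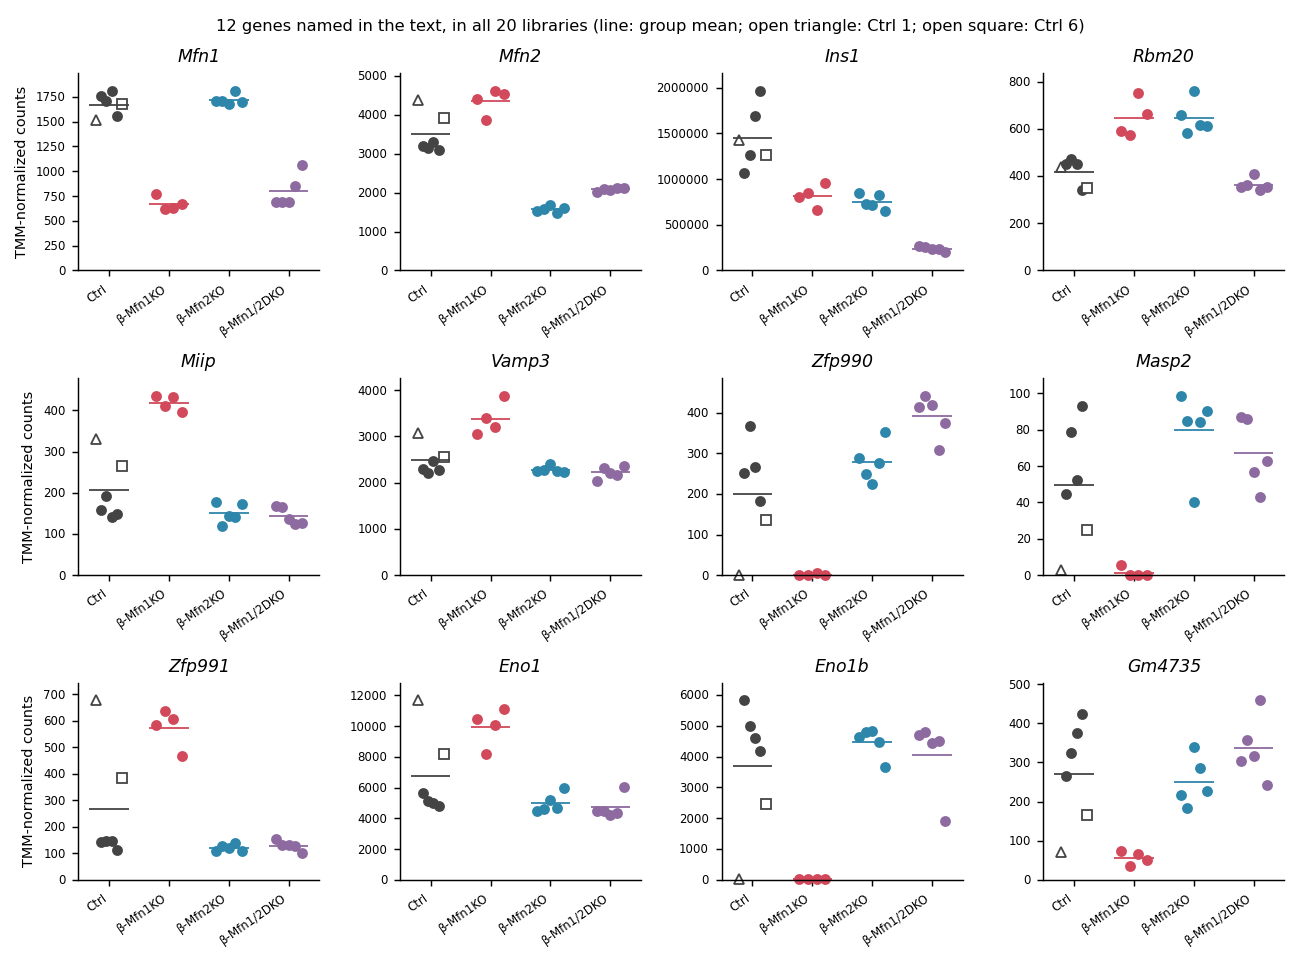
TMM-normalized counts (vertical axes, starting at 0) of 12 genes in all 20 libraries, by group (horizontal axes). Each point is 1 library and each line a group mean, and the open triangle and open square mark the first and the sixth Ctrl library. Mfn1 and Ins1 separate all β-Mfn1KO from all Ctrl libraries, whereas in Zfp990, Eno1b and Eno1 the first Ctrl library lies with β-Mfn1KO.

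The gene for one of the mouse insulins was lower and the other did not pass the test. Mice have a pair of insulin genes, Ins1 and Ins2, of which Ins2 gives most of the mRNA. Ins1 (chr19:52264297-52265476) counted 1425487, 1065894, 1259045, 1688836, 1962278 and 1263699 in the 6 Ctrl libraries. It counted 807733, 844389, 658270.5 and 960924 in the 4 β-Mfn1KO libraries. All 4 lay below the lowest Ctrl library, with a log2 fold change of −0.82 ± 0.14 (SE) and an adjusted p of 0.0324. Ins2 had a log2 fold change of 0.20 ± 0.14 (SE) and an adjusted p of 0.737, with overlapping libraries. As a share of Ins1 plus Ins2 counts, Ins1 made up 21.9, 21.3, 23.4, 23.4, 23.1 and 22.4% in Ctrl and 12.2, 12.4, 12.1 and 13.6% in β-Mfn1KO. The spread within each group was small beside the gap (22.6 ± 0.88% in Ctrl and 12.6 ± 0.678% in β-Mfn1KO, SD, n = 6 and 4). The share was 12.6 to 13.9% in β-Mfn2KO and 9.03 to 9.82% in β-Mfn1/2DKO. All 14 knockout libraries carried Ins1-Cre, which the study describes as a knock-in strain, so the recombinase sits at the Ins1 gene itself. The driver and the loss of a mitofusin cannot be told apart in this comparison, since the labels do not say which Ctrl libraries carried Cre. The Ins1 call was lost (adjusted p up to 0.418) in the fit to 10 libraries and when Ctrl library 4 or 5 or any 1 of the 4 β-Mfn1KO libraries was left out, but its direction held.

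Rbm20, which encodes an RNA-binding regulator of splicing best known in heart muscle, was the one called gene that rose. It lies 1.41 Mb from Ins1, at chr19:53677306-53867080. Ctrl libraries held 436, 451, 471, 452, 341 and 349 and β-Mfn1KO libraries 592, 575, 752 and 662, so the groups did not overlap. The log2 fold change was 0.63 ± 0.10 (SE) with an adjusted p of 0.0246. β-Mfn2KO, set against the same Ctrl libraries, had 657, 583, 759, 616 and 609.6 and a log2 fold change of 0.63 (adjusted p = 0.00405), whereas β-Mfn1/2DKO had 353, 363, 406, 339 and 354 and −0.20 (adjusted p = 0.185). The rise was thus seen in both single knockouts and not in the double knockout libraries. Of the 144 genes with a mean of at least 10 within 10 Mb of Ins1, 7 (4.86%) had an unadjusted p under 0.05, below the 10.3% of all genes, and only Ins1 and Rbm20 passed the adjustment. A gene on the opposite strand, Gm16299, overlaps Rbm20 with a level 12.1% of that of Rbm20, and whether counting used strand is not given. The adjusted p of Rbm20 exceeded 0.05 (up to 0.154) with total-count scaling, in the fit to 10 libraries and without Ctrl library 5 or β-Mfn1KO library 3 or 4, and in female libraries alone and with the replicate number as a block its fold change was under 1.5.

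A stretch of chromosome 4 around Mfn2 held more differences than the rest of the genome. Of the 226 genes with a mean of at least 10 that start within 10 Mb of Mfn2, 51 (22.6%) had an unadjusted p under 0.05, 31 higher and 20 lower, against 10.3% over all genes. Of the 226 genes, 11 (4.87%) were below an unadjusted p of 0.001, namely Mfn2, Miip, Masp2, Zfp990, Vamp3, Angptl7, Camta1, Agtrap, Lrrc38, Spsb1 and Arhgef16. The same window around Mfn1 held 6 of 84 genes (7.14%) at an unadjusted p under 0.05, Mfn1 among them. The 51 genes lay on both sides of Mfn2, at distances from −9.56 to 8.16 Mb.

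**Figure D2:**
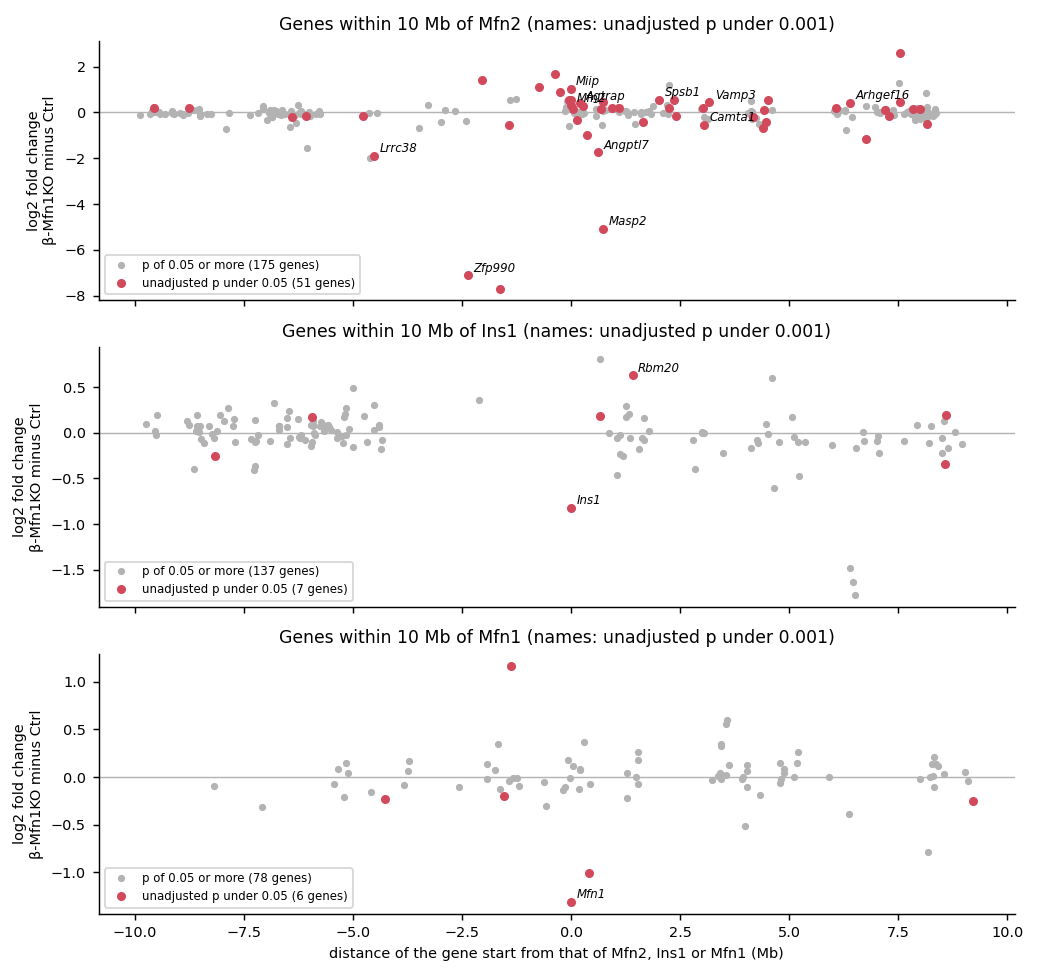
Log2 fold change of β-Mfn1KO against Ctrl (vertical axes) by distance in Mb from Mfn2, Ins1 or Mfn1 (horizontal axis), for genes whose mean normalized count was 10 or more. Red points have an unadjusted p under 0.05 (51 genes around Mfn2, 7 around Ins1 and 6 around Mfn1) and named ones an unadjusted p under 0.001, and the window around Mfn2 holds the most of both.

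The Ctrl libraries did not form one group in this stretch. Zfp990, a zinc finger gene 2.36 Mb from Mfn2, was 0, 252, 368, 267, 184 and 137 in the 6 Ctrl libraries and 0, 0, 4.97 and 0 in β-Mfn1KO. The first Ctrl library was thus at 0 like 3 of the 4 β-Mfn1KO libraries, and the other 5 were above 130. The values rest on 0 to 121 counts, and the 2 counts of the third β-Mfn1KO library are all that this group had. β-Mfn2KO libraries ranged from 223 to 354 and β-Mfn1/2DKO libraries from 308 to 442. Zfp991, another zinc finger gene of the stretch, was higher, with 677, 144, 146, 147, 114 and 386 in Ctrl and 583, 638, 606 and 468 in β-Mfn1KO. Again the first Ctrl library lay in the β-Mfn1KO range, the sixth stood between, and the other 4 were at the level of β-Mfn2KO (109 to 138). Zfp979 was 218, 71.9, 48.6, 63.1, 81.6 and 96.5 in Ctrl and 207, 198, 164 and 161 in β-Mfn1KO. Zfp933 was 555, 289.8, 231, 270.1, 239 and 377 in Ctrl and 455, 503, 532 and 416 in β-Mfn1KO. Both were highest among Ctrl in the first library and second highest in the sixth. None of the 3 genes passed the adjustment (adjusted p = 0.528, 0.515 and 0.571). Zfp990 did, at 0.0024 and at most 0.0339 over the alternatives, but with 2 counts in 1 group its fold depends on the prior count and is not given. Zfp979, Zfp991, Zfp933, Angptl7, Camta1, Eno1 and Vamp3 were chosen after their values were seen.

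Other genes of the stretch had the same order of libraries. Miip, which encodes an inhibitor of cell migration and lies 0.0128 Mb from Mfn2, was 331, 159, 192, 140.3, 149 and 265 in Ctrl and 436, 409.7, 432 and 396 in β-Mfn1KO. The groups did not overlap, but the first and the sixth Ctrl library were the highest of the 6, and the log2 fold change of 1.02 ± 0.19 (SE) had an adjusted p of 0.0736. Vamp3, which encodes a SNARE protein of vesicle fusion, was 3076, 2297, 2200.2, 2466, 2273 and 2562 in Ctrl and 3048, 3393, 3214 and 3878 in β-Mfn1KO. The first Ctrl library exceeded the first β-Mfn1KO library, and the log2 fold change of 0.45 ± 0.077 (SE) had an adjusted p of 0.0296 (up to 0.255 over the alternatives). Camta1 overlaps Vamp3 on the same strand at 25.3% of its level. Mfn2 itself was 4373, 3200.4, 3151, 3304, 3089 and 3910.1 in Ctrl and 4399, 3869, 4607 and 4535 in β-Mfn1KO. Ctrl libraries 1 and 6 fell within the β-Mfn1KO range and the other 4 were below it, for a log2 fold change of 0.31 ± 0.079 (SE) with an adjusted p of 0.433.

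Masp2, a serine protease of the lectin pathway of complement, was 2.91, 44.4, 79, 52.6, 93.3 and 24.9 in Ctrl and 5.58, 0, 0 and 0 in β-Mfn1KO, on 1 to 32 counts in Ctrl and 2, 0, 0 and 0 in β-Mfn1KO. The first Ctrl library lay within the β-Mfn1KO range. It passed with an adjusted p of 0.0296 (up to 0.208 over the alternatives), but Tardbp overlaps it on the opposite strand at a level far above its own, which makes the value uncertain. Angptl7, a secreted angiopoietin-like protein, was 224, 2058, 1021, 2876, 2031 and 784 in Ctrl and 399, 489, 365 and 535 in β-Mfn1KO, and Camta1, a calmodulin-binding transcription activator, was 561, 865, 942, 961, 877 and 722 and 458, 646, 613 and 529.5. For both, the first Ctrl library was the lowest of its group and lay below the highest β-Mfn1KO library, with adjusted p of 0.346 and 0.433. Spsb1, an adaptor of ubiquitin ligases, and Arhgef16, a guanine nucleotide exchange factor, were higher in β-Mfn1KO without overlap (0.54 and 0.43 on the log2 scale), with an adjusted p of 0.433 for each. Arhgef16 was 3521, 2464, 2680.4, 2459, 2463 and 3508 in Ctrl, the first and the sixth library again highest, and 3662, 3530.5, 3799.8 and 4316 in β-Mfn1KO.

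The order was counted over all 51 genes of the window with an unadjusted p under 0.05. The first Ctrl library was nearer to the β-Mfn1KO mean than to the mean of the other Ctrl libraries in 35 of the 51 (68.6%) and the sixth in 15 (29.4%), while the other 4 were so in 2 to 7. Among the 1643 genes elsewhere with an unadjusted p under 0.05, the first Ctrl library was so in 36.3% and the sixth in 12.7%. Without the first Ctrl library 58 genes of the window were below an unadjusted p of 0.05 and 13 below an adjusted p of 0.05, against 51 and 3 with it. Of the 21 genes then called, 10 lay in the window. In β-Mfn1/2DKO, where Mfn1 is deleted too, Zfp991 was 102 to 156, Miip 124 to 168 and Vamp3 2043.5 to 2349. In the same libraries Angptl7 was 520 to 661 and Arhgef16 2867 to 4040. Which alleles of this stretch each Ctrl mouse carried is not in the labels. The parts that the origin of the chromosome and the deletion of Mfn1 had in these differences were not tested.

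Enolase genes outside this stretch followed the same libraries. Eno1, the glycolytic enolase, lies 2.36 Mb from Mfn2, Eno1b on another chromosome is a close copy of it, and Gm4735 on chromosome 2 is a processed pseudogene. Eno1b was 29.1, 5821, 4990, 4592, 4182 and 2450 in Ctrl and 14, 19.2, 14.9 and 33.3 in β-Mfn1KO, on 10 to 2752 counts in Ctrl and 5, 7, 6 and 12 in β-Mfn1KO, with an adjusted p of 0.000423. The first Ctrl library was as low as β-Mfn1KO and the sixth lay between it and the other 4. Eno1 was 11676, 5660.5, 5102, 4988, 4815 and 8172 in Ctrl and 10487, 8177, 10083 and 11141 in β-Mfn1KO, so it was high in the libraries where Eno1b was low (log2 fold change 0.57 ± 0.19 (SE), adjusted p = 0.571). Gm4735 was 69.8, 264, 325, 375, 423 and 165 in Ctrl and 72.6, 35.7, 64.6 and 49.9 in β-Mfn1KO, with an adjusted p of 0.0246. Over the alternatives the adjusted p reached 0.00924 for Eno1b and 0.156 for Gm4735. Of the 75-base stretches of Eno1b transcripts, 69.6% also occur in Eno1, and of those of Gm4735 87.5% occur in Eno1b, so the split of reads among them is uncertain. The sum of the 3 genes was 9419 to 11775 in Ctrl and 8232 to 11224 in β-Mfn1KO (10680 ± 952 and 10050 ± 1290, SD, n = 6 and 4), and its ranges overlapped.

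The genes set out next, 12 higher and 12 lower, were taken by the smallest unadjusted p among genes with a mean of at least 100 and no overlap between the groups. Over the 12160 genes of that level, 108 (0.888%) did not overlap with β-Mfn1KO higher and 70 (0.576%) with β-Mfn1KO lower. The rule used this contrast, so their values are a description. Higher were Rbm20, Miip, Spsb1 and Arhgef16, given above, and Jtb, Cd59a, Sap18b, Spc25, Entpd4b, Dus1l, Tmem134 and Yif1b. Cd59a, which shields cells from the membrane attack complex of complement, was 952, 1169, 1085 and 2212 in β-Mfn1KO against 910, 499, 477, 302, 396 and 759.6 in Ctrl. The first β-Mfn1KO library barely exceeded the first Ctrl library, and the log2 fold change of 1.28 ± 0.27 (SE) had an adjusted p of 0.193. Spc25, a subunit of the kinetochore complex that binds microtubules, was 6724, 7061, 6308 and 6608 against 4995, 4905, 4012, 5827, 5328 and 4763 (0.43 ± 0.089 (SE), adjusted p = 0.206). Jtb, a small membrane protein, was 2931, 2972, 2446 and 2531 against 2439, 2119.5, 2076, 2305, 2221 and 2092 (0.30 ± 0.062 (SE), adjusted p = 0.193). Yif1b, which acts in traffic between the endoplasmic reticulum and the Golgi, had a log2 fold change of 0.36 ± 0.089 (SE), and Dus1l, a dihydrouridine synthase of tRNA, one of 0.29 ± 0.071 (SE). Tmem134, a membrane protein, changed by 0.22. Sap18b and Entpd4b share 98.7% and all of their 75-base stretches with Sap18 and Entpd4, so their values (0.32 and 0.49) are uncertain. Of these 8 genes none had an adjusted p under 0.05 in edgeR, while in DESeq2, where 24 genes passed that threshold against 8, Jtb, Cd59a, Sap18b, Spc25, Entpd4b and Dus1l did.

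Lower without overlap were Mfn1 and Ins1 and 10 further genes, none of which had an adjusted p under 0.05 in edgeR, while Col6a6, Mef2a, Ncoa1, Prkab2 and Grin2c did in DESeq2. Col6a6, a chain of collagen VI, was 2247, 2367, 2854 and 2647 in β-Mfn1KO against 2995, 3012, 3875, 3424, 4118 and 4149.8 in Ctrl (−0.51 ± 0.11 (SE), adjusted p = 0.282). Mef2a, a transcription factor of muscle and neurons, was 2113, 2112, 2136 and 2029 against 2515, 2557, 2309.6, 2245, 2608 and 2478 (−0.23 ± 0.05 (SE), adjusted p = 0.282), and its 4 knockout libraries lay close together. Prkab2, a regulatory subunit of the energy sensor AMPK, was 832, 775, 822 and 846 against 936, 1058, 1103, 1073, 895 and 1034 (−0.31 ± 0.071 (SE), adjusted p = 0.29). Grin2c, a subunit of NMDA receptors, had the largest change of the 10, with 419, 338, 419.7 and 504 against 512, 535, 824, 589, 848 and 781 (−0.70 ± 0.16 (SE), adjusted p = 0.303). Baiap2, which links small GTPases to actin, changed by −0.67, and Ncoa1, a coactivator of nuclear receptors, by −0.28 on the log2 scale. Tmem132b (−0.35), Gpatch8 (−0.25), the receptor gene Neo1 (−0.22) and the zinc finger gene Pogz (−0.20) completed the list. Genes overlap Mef2a on the opposite strand, the most abundant at 26.9% of its level.

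Gene families were then read as groups, since small shared shifts can escape a test of single genes. A set of 49 lists, holding 1271 genes with a mean of at least 10, was described by the number of members higher and lower, the number at an unadjusted p under 0.05 and the median log2 fold change. Each was also taken with offsets for transcript length and GC content, an alternative added after the data were seen. Over all 16449 genes of that level these were 49.9% higher, 10.3% and a median of −0.000321. The median was above 0 in 26 families and below 0 in 23. Of the members 3 (Mfn1, Ins1 and Vamp3) had an adjusted p under 0.05. In 3 families the mean level of the members did not overlap between the groups (sterol and fatty acid synthesis, heat shock and clock).

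**Figure D3:**
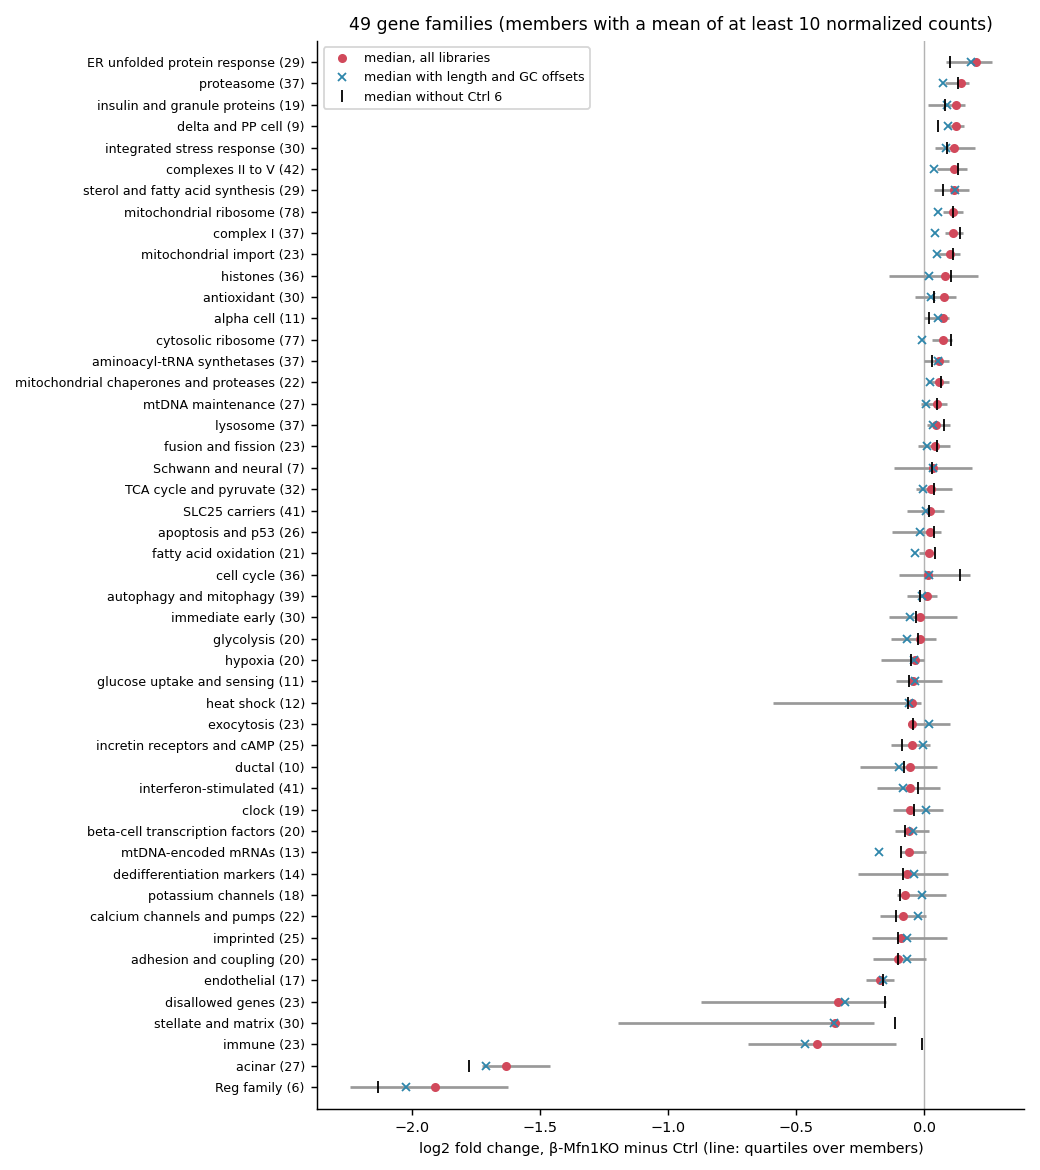
Median log2 fold change of β-Mfn1KO against Ctrl (horizontal axis) in 49 gene families (vertical axis, members in parentheses). Red points are medians over all libraries, grey lines the quartiles over members, crosses the medians with offsets for transcript length and GC content, and vertical ticks the medians without the sixth Ctrl library. Proteasome (0.14) and respiratory chain families (0.11 and 0.12) sit just above 0, and acinar (−1.63) and Reg genes (−1.91) far below.

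Nuclear genes of mitochondrial respiration were slightly higher as groups. In complex I, which feeds electrons from NADH into the chain, 35 of 37 genes were higher and 10 of them at an unadjusted p under 0.05, with a median of 0.11. Ndufb6 was 2183, 2667, 1899.9 and 2218 in β-Mfn1KO against 1656 to 2024 in Ctrl, and Ndufb11 4209.5, 4314, 3442 and 4241 against 3328 to 3588 (log2 fold changes 0.30 and 0.21, adjusted p = 0.514 for each). In both the third β-Mfn1KO library stayed in the Ctrl range and the other 3 were above it. Rbm10 overlaps Ndufb11 on the opposite strand at 105% of its level, which makes the value of Ndufb11 uncertain. In complexes II to V, 39 of 42 were higher and 14 at an unadjusted p under 0.05, with a median of 0.12. Atp5l, a subunit of ATP synthase, was 5011, 6544, 4957 and 6173 against 3969 to 4953, and Cycs, cytochrome c, 3632, 3481, 2811 and 2875 against 2315 to 3082 (0.32 ± 0.10 (SE) and 0.26 ± 0.091 (SE), adjusted p = 0.514 and 0.571).

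Mitochondrial ribosomal proteins, which translate the mRNAs of mtDNA, had 72 of 78 genes higher, 17 at an unadjusted p under 0.05 and a median of 0.11. Mrpl17 (0.23 ± 0.058 (SE)) and Mrpl53 (0.30 ± 0.082 (SE)) had the smallest p, with adjusted p of 0.433 and 0.465. Mitochondrial import had 21 of 23 higher and 6 at that p (median 0.10), led by the channel genes Timm17b (0.18) and Timm23 (0.19). Of the 75-base stretches of Mrpl53 and Timm23, 78.8% and 52.1% also occur in other genes, so their values are uncertain. Mitochondrial chaperones and proteases had 18 of 22 higher and 2, Grpel1 and Clpp, at that p. Tada2b overlaps Grpel1 on the opposite strand at 73.2% of its level, so the value of Grpel1 is uncertain. Factors of mtDNA maintenance had 18 of 27 higher and none at an unadjusted p under 0.05 in edgeR (median 0.051). Tfam, which packages mtDNA, was 1572, 1721, 1502 and 1666 in β-Mfn1KO and 1453 to 1665 in Ctrl.

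In the pyruvate and TCA cycle list 21 of 32 genes were higher, 5 at an unadjusted p under 0.05. With the length and GC offsets 16 of 32 were higher and 1 was at that p. Mpc1 and Mpc2, the 2 subunits of the mitochondrial pyruvate carrier, led them. Mpc2 was 2211, 2288, 1808 and 2189.9 in β-Mfn1KO against 1739, 1682, 1708, 1607, 1789 and 1834 in Ctrl and Mpc1 1795, 1696, 1706 and 1952 against 1518, 1506, 1638, 1645, 1518 and 1638. Mpc1 did not overlap and Mpc2 overlapped in β-Mfn1KO library 3, with log2 fold changes of 0.18 ± 0.062 (SE) and 0.30 ± 0.068 (SE) and adjusted p of 0.571 and 0.303. Among mitochondrial carriers of the SLC25 family the members were mixed (25 higher, 16 lower), and Slc25a37, the iron importer mitoferrin, was lower at −0.27 ± 0.083 (SE) with an adjusted p of 0.53.

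The mRNAs encoded by mtDNA itself were not higher as a group. Of the 13, 4 were higher and 9 lower, with a median of −0.059, and none was below an unadjusted p of 0.05 in edgeR. Their mean level by library, in log2 CPM (counts scaled to library size) relative to the Ctrl mean, was −0.009, 0.054, −0.059 and −0.28 in β-Mfn1KO and −0.24 to 0.17 in Ctrl. Only the fourth β-Mfn1KO library lay below the Ctrl range. With the length and GC offsets the median was −0.18 and all 13 were lower, none at an unadjusted p under 0.05, and it was −0.034 without the first Ctrl library. Against the same Ctrl libraries the median was −0.68 in β-Mfn2KO and −1.73 in β-Mfn1/2DKO. Of the 75-base stretches of mt-Atp6, mt-Co2, mt-Co3, mt-Nd3 and mt-Nd4l, 97.8 to 99.9% also occur in other genes, as do 61.5% of those of mt-Nd4 and 39.8% of those of mt-Co1. The values of these genes are thus uncertain. So are those of mt-Atp8, which mt-Atp6 overlaps on the same strand at 9860% of its level, and of mt-Nd6, which mt-Nd5 overlaps on the opposite strand at 535%.

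The proteasome, which degrades ubiquitin-tagged proteins, was the family with the most members at an unadjusted p under 0.05 when all libraries were used without offsets. The mitochondrial ribosome had more with the offsets (11 of 78 against 6 of 37) and without the third β-Mfn1KO library (39 of 78 against 25 of 37). In both cases this was a smaller share of its longer list. The proteasome had 36 of 37 genes higher, 20 of them at that p, and a median of 0.14 (range −0.042 to 0.25). Psmb7, a subunit of the catalytic core, was 5080.4, 5675, 4475 and 5186 in β-Mfn1KO against 4486, 4319, 4416, 4666, 4191 and 4243 in Ctrl. Psmc3, an ATPase of the cap, was 4818, 5089.5, 4334 and 4729 against 4123, 4548, 4014, 4318, 3832 and 3646. Both differed by 0.22 on the log2 scale with an adjusted p of 0.498, and in both the third β-Mfn1KO library was in the Ctrl range. Slc39a13 overlaps Psmc3 on the opposite strand at 30.9% of its level. Cytosolic ribosomal proteins had 66 of 77 higher but only 3 at an unadjusted p under 0.05 (median 0.073), with Rplp0 at 32908, 35998, 26623 and 32025 against 24781 to 30574.

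**Figure D4:**
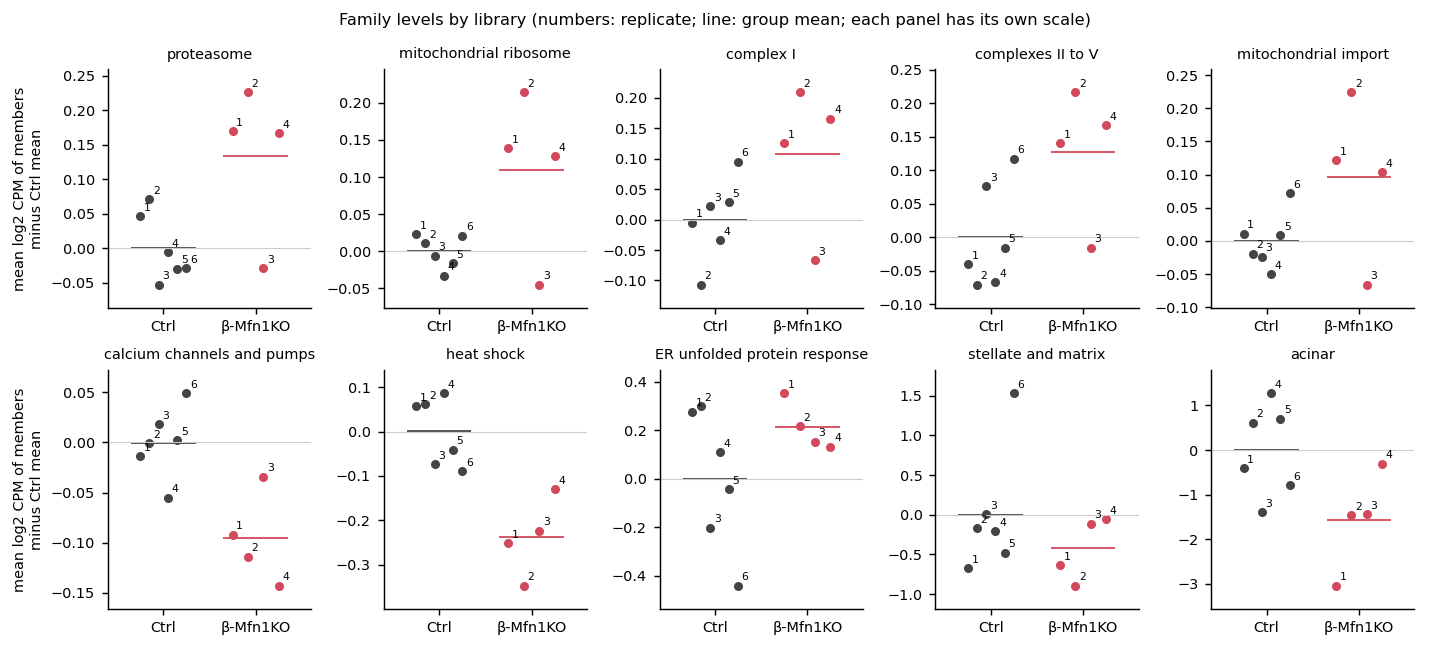
Mean log2 CPM of the members of 10 families, relative to the Ctrl mean (vertical axes, each with its own scale), in the 6 Ctrl and 4 β-Mfn1KO libraries (horizontal axes). Points are libraries with their replicate number and lines are group means. In the 5 families of the top row β-Mfn1KO libraries 1, 2 and 4 lie above the Ctrl range and library 3 lies within or below it.

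These shifts came from 3 of the 4 β-Mfn1KO libraries. The proteasome mean was 0.17, 0.23, −0.029 and 0.17 relative to the Ctrl mean in the 4 libraries, against −0.053 to 0.071 in Ctrl. The mitochondrial ribosome mean was 0.14, 0.21, −0.045 and 0.13, against −0.033 to 0.023, and the complex I mean 0.13, 0.21, −0.067 and 0.17, against −0.11 to 0.10. In each, libraries 1, 2 and 4 exceeded all 6 Ctrl libraries and library 3 did not. Without the third library the proteasome median was 0.18 with 25 genes at an unadjusted p under 0.05, and the mitochondrial ribosome had 39 such genes and a median of 0.16. Over all genes 3080 were then at an unadjusted p under 0.05 in place of 2130, and 23 in place of 8 had an adjusted p under 0.05.

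Transcript length moved with the same libraries. Genes with a mean of at least 100 and a known length were put into 5 classes of about equal number by the length of their longest transcript, from a median of 1410 bases to one of 6891 bases. The median log2 fold change was 0.087 in the shortest class, then 0.044, 0.016 and −0.019, and −0.074 in the longest. In the shortest class the 4 β-Mfn1KO libraries stood at 0.106, 0.162, −0.045 and 0.141 relative to the Ctrl mean, and Ctrl libraries between −0.016 and 0.025. β-Mfn1KO libraries 1, 2 and 4 thus fell with length and the third did not. Classes by GC content had medians of 0.004 to 0.013 and no such order. The median length was 1883 bases in the proteasome list, 1005 in complex I and 1866 in the mitochondrial ribosome. With the length and GC offsets the proteasome median fell from 0.14 to 0.073 and its genes at an unadjusted p under 0.05 from 20 to 6. The medians became 0.042 for complex I, 0.04 for complexes II to V, 0.053 for the mitochondrial ribosome, 0.052 for import and −0.007 for the cytosolic ribosome. The medians of all but the last stayed above 0. In the same order, 26 of 37, 31 of 42, 63 of 78, 19 of 23 and 32 of 77 members were then higher. Members at an unadjusted p under 0.05 were 4, 6, 11, 5 and 3, in place of 10, 14, 17, 6 and 3. Over all genes, 800 were higher and 855 lower at that p with the offsets, in place of 1126 and 1004. The share among genes with a mean of at least 10 is not given for the fit with offsets. Whether these families still stood out from other genes in that fit was not tested. The part that RNA quality or library preparation had in the trend with length was not tested.

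**Figure D5:**
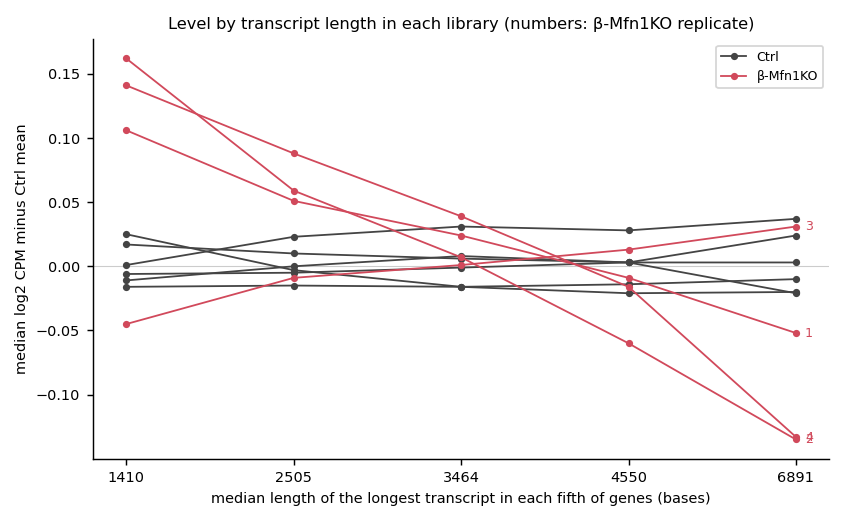
Median log2 CPM relative to the Ctrl mean (vertical axis) in 5 classes of genes by length of the longest transcript (horizontal axis, median length in bases). Each line is 1 library. β-Mfn1KO libraries 1, 2 and 4 run from 0.106 to 0.162 in the shortest class down to below −0.05 in the longest, and the third β-Mfn1KO library runs close to Ctrl.

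The ER unfolded protein response, the set of chaperones and degradation factors that serve insulin folding, had 27 of 29 genes higher, 6 at an unadjusted p under 0.05 and a median of 0.20. Selenos and Selenok, membrane proteins of ER-associated degradation, were 6716, 7019.7, 5633 and 5979 and 12187, 12758, 10989.5 and 11296 in β-Mfn1KO. In Ctrl they were 5978, 5988, 4206, 5143, 5001 and 3677 and 11426, 11554, 8515, 10141, 9212 and 7397. The first 2 Ctrl libraries reached the β-Mfn1KO range and the sixth was lowest for both, with log2 fold changes of 0.34 ± 0.12 (SE) and 0.28 ± 0.10 (SE) and adjusted p of 0.571 and 0.572. Without the sixth Ctrl library the family median was 0.10, and with the length and GC offsets 0.18. The integrated stress response, which Atf4 drives, had 26 of 30 genes higher and none at an unadjusted p under 0.05 in edgeR. Its median of 0.12 was 0.19 without the first Ctrl library, 0.089 without the sixth and 0.085 with the length and GC offsets. Atf4 was 20576, 20405, 16004 and 16153 in β-Mfn1KO against 13511 to 20695 in Ctrl. Sterol and fatty acid synthesis had 24 of 29 higher, 4 at that p, and its mean level did not overlap between the groups (5.825 to 5.840 log2 CPM against 5.583 to 5.805). Its median of 0.12 was 0.073 without the sixth Ctrl library.

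No gene on the list of β-cell transcription factors passed the adjustment. Pdx1 was 7582, 7806, 8908 and 7989 in β-Mfn1KO against 7085 to 8764 in Ctrl, Nkx6-1 23487, 22145, 24010.5 and 22758 against 18912 to 24259 and Mafa 39228, 51827, 46012 and 47488 against 38736 to 53144. The glucose transporter Slc2a2 was 15149, 18051, 23886 and 21289 against 17626 to 24562, and the libraries of both groups overlapped for all 4 genes. Their log2 fold changes were −0.021 ± 0.11 (SE), 0.06 ± 0.11 (SE), −0.08 ± 0.18 (SE) and −0.084 ± 0.16 (SE), and none had an adjusted p under 0.05. Of 20 β-cell transcription factors 14 were lower and 3 (Foxo1, Rfx6 and Myt1) were so at an unadjusted p under 0.05, with a median of −0.058. With the length and GC offsets 1 was at that p (median −0.045). Without the sixth Ctrl library 1 of these factors was (−0.073), and without the third β-Mfn1KO library 5 were (−0.079). Their mean level was −0.088, −0.10, 0.016 and −0.071 relative to the Ctrl mean, against −0.062 to 0.049 in Ctrl, so β-Mfn1KO libraries 1, 2 and 4 lay below the Ctrl range. Foxo1 was 2468, 2169, 2779 and 2672 against 2775 to 3109 (−0.20 ± 0.061 (SE), adjusted p = 0.528). Insulin and granule proteins had 16 of 19 members higher, with a median of 0.12 (0.082 without the sixth Ctrl library), while Ins1 was the lowest of them. Scg5, a chaperone of prohormone convertase 2, was 39420.5, 46938, 35589 and 42221 against 31573 to 36901 (0.24 ± 0.077 (SE), adjusted p = 0.557).

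Among genes of glucose sensing, Mlx, at an unadjusted p of 0.000674, was 2247, 2271, 1922 and 2101 against 1936, 1969, 1832, 1708, 1775 and 1712 in Ctrl (0.23 ± 0.058 (SE), adjusted p = 0.449). Its partner Mlxipl (ChREBP), which binds DNA with it in response to glucose, was 7087, 8878, 10731 and 9256 against 9272, 6843, 14608, 10766, 14697 and 13393 (−0.37 ± 0.17 (SE), adjusted p = 0.653). Calcium channels and pumps had 16 of 22 genes lower, 7 of them at an unadjusted p under 0.05, and a median of −0.081. The receptors for inositol trisphosphate that release calcium from the ER led them. Itpr3 was 4243, 3742, 4659 and 4028 against 4655, 4539, 5312, 4652, 5354 and 5703 and Itpr2 790, 759, 939 and 942 against 866 to 1796, with adjusted p of 0.53 and 0.571. Both overlapped between the groups. These are long transcripts, and with the length and GC offsets the family median was −0.025 with 3 genes at that p. Glp1r, the receptor for the incretin GLP-1, was 22289.5, 23798, 27808 and 26991 against 23736 to 33437 (−0.23 ± 0.12 (SE), adjusted p = 0.684).

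Other families held few differences. Tjp1, the tight junction protein ZO-1, was 4994, 4979.5, 5764 and 4577 against 6178, 6344, 5865, 5998, 5657 and 5775 in Ctrl (−0.23 ± 0.063 (SE), adjusted p = 0.465). Of the pro-apoptotic BH3 genes, Bad was higher at 0.21 ± 0.056 (SE) and Bcl2l11 (Bim) lower at −0.27 ± 0.074 (SE), with an adjusted p of 0.465 for each. Gpr137 overlaps Bad on the opposite strand at 89.4% of its level, which makes the value of Bad uncertain. Prdx3, the peroxiredoxin of mitochondria, was 1809, 1820.2, 1704 and 1860 against 1547, 1722, 1577, 1550.5, 1582 and 1472 (0.19 ± 0.058 (SE), adjusted p = 0.519). Heat shock genes had 10 of 12 members lower and none at an unadjusted p under 0.05 in edgeR, yet their mean level did not overlap, at −0.25, −0.35, −0.22 and −0.13 relative to the Ctrl mean against −0.089 to 0.086 in Ctrl. Their median was only −0.047, with a lower quartile of −0.59 and a lowest of −0.84, so the members with the largest falls weighed most in that mean. Autophagy and mitophagy, cell cycle and glycolysis had medians of 0.013, 0.014 and −0.016. The medians were −0.014, 0.14 and −0.025 without the sixth Ctrl library, and that of glycolysis was −0.068 with the length and GC offsets.

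The summed markers of the other islet endocrine cells lay within the Ctrl range. The summed normalized counts of 6 α-cell markers were 1190000 to 1460000 in β-Mfn1KO against 661000 to 2110000 in Ctrl, and those of 3 δ-cell markers 103000 to 155000 against 87600 to 174000. Glucagon (Gcg) and somatostatin (Sst), the hormones of these cells, had log2 fold changes of 0.11 ± 0.22 (SE) and 0.10 ± 0.17 (SE) and overlapped. All 9 members of the δ- and PP-cell list were higher, with a median of 0.12 that was 0.053 without the sixth Ctrl library and 0.20 without the third β-Mfn1KO library. Pyy, a hormone of PP-cells, was 61526, 50218, 35378 and 58213 against 44906, 41191, 36179, 33959.9, 47662 and 35499 (0.36 ± 0.13 (SE), adjusted p = 0.572). Gc, the vitamin D-binding protein found in α-cells, was 4840.3, 4397, 3651 and 4538 against 3922, 3532, 2374, 3792, 2993 and 2322 (0.46 ± 0.15 (SE), adjusted p = 0.571).

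Several genes of mitochondrial upkeep and of glucose and lipid metabolism were read individually. Nrf1, a transcription factor for nuclear-encoded mitochondrial genes, and Lonp1, a protease of the matrix, had log2 fold changes of 0.03 ± 0.11 (SE) and −0.021 ± 0.13 (SE). Dnaja3, a mitochondrial co-chaperone, changed by 0.026 ± 0.084 (SE) and Top1mt, the mitochondrial topoisomerase, by −0.12 ± 0.25 (SE). Coro7 overlaps Dnaja3 on the opposite strand at 50.5% of its level, so the value of Dnaja3 is uncertain. Slc25a33, which carries pyrimidine nucleotides into mitochondria, was 195, 192, 119 and 147 in β-Mfn1KO against 116, 138, 134, 133, 125 and 149 in Ctrl (0.30 ± 0.15 (SE), adjusted p = 0.684), with its first 2 knockout libraries above Ctrl and the third near the lowest. Angptl8, a regulator of lipoprotein lipase, was 94.9, 38.5, 44.7 and 49.9 against 46.5, 46.5, 21.3, 28.1, 23.3 and 15.6, on 14 to 34 and 5 to 22 counts (0.89 ± 0.35 (SE), adjusted p = 0.624). Dock6 overlaps Angptl8 on the opposite strand at a level far above its own, which makes the value uncertain. The related Angptl4 was 2.79 to 19.4 against 0 to 34.2, on 1 to 7 and 0 to 11 counts. Both groups overlapped in all 7 genes and none had an adjusted p under 0.05 in edgeR, with Angptl8 alone below an unadjusted p of 0.05 (DESeq2 gave an adjusted p for Nrf1, Lonp1 and Dnaja3 alone, none under 0.05).

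The remaining families are given by counts. Lysosomal genes were higher in 30 of 37 and aminoacyl-tRNA synthetases in 29 of 37, with 4 and 1 members at an unadjusted p under 0.05. Antioxidant genes were higher in 21 of 30, with 5 at that p and a median of 0.079 that was 0.038 without the sixth Ctrl library. Exocytosis (11 of 23 higher), fatty acid oxidation (12 of 21), immediate early genes (15 of 30) and the apoptosis list (14 of 26) were evenly split. Potassium channels were lower in 13 of 18, incretin receptor and cAMP genes in 16 of 25, interferon-stimulated genes in 26 of 41, hypoxia genes in 15 of 20 and imprinted genes in 16 of 25, with 0, 1, 0, 1 and 3 lower members at an unadjusted p under 0.05. With the length and GC offsets 9 of 18 potassium channels were higher, with a median of −0.006 in place of −0.074, and 11 of 25 incretin receptor and cAMP genes (−0.004 in place of −0.048).

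Markers of non-endocrine cells varied between libraries more than between groups. The summed counts of 7 acinar markers were 4370 to 29900 in β-Mfn1KO and 11400 to 87500 in Ctrl, and all 27 acinar genes with a mean of at least 10 were lower, with a median of −1.63 and none at an unadjusted p under 0.05 in edgeR. The lipase gene Cel was 148, 558, 554 and 1039.5 against 1416, 2727, 501, 3603, 2180 and 903, so 3 of 4 β-Mfn1KO libraries overlapped with Ctrl. The summed counts of 5 macrophage markers were 2180 to 3500 in β-Mfn1KO and 2260 to 3730 in 5 Ctrl libraries, with 22700 in the sixth. Lyz2, of macrophages, was 502, 542, 1026 and 790 in β-Mfn1KO against 564, 603, 948, 863, 1011 and 18202 in Ctrl, and Cxcl12, a chemokine of stromal cells, 53, 35.7, 34.8 and 63.8 against 23.3, 36, 79, 70.2, 55.4 and 3349.7, on 8 to 26 counts in each library but the sixth Ctrl. The sixth Ctrl library stood alone in both, and without it their log2 fold changes went from −2.36 to −0.15 and from −3.68 to −0.15. Without it the medians of the immune list went from −0.42 to −0.006, of the stellate and matrix list from −0.35 to −0.12, and of the disallowed genes, which β-cells normally silence, from −0.34 to −0.15. Endothelial genes were lower in 16 of 17, with a median of −0.17 that was −0.16 without it, and Kdr, a receptor for VEGF, was 1496, 1460, 1542 and 1478 against 1512, 1649.9, 1769, 1638, 2203 and 2254. No marker of these cell types was at 0 in all 10 libraries, and Cd3e of T cells stayed below 10. Their part in the other differences was not tested.

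A direct contrast of both single knockouts, whose difference uses no Ctrl library although Ctrl enters the estimate of spread, gave 96 genes (0.335% of all genes) at an adjusted p under 0.05. Of these, 20 lay within 10 Mb of Mfn2. Mfn1 and Mfn2 differed in opposite directions, by −1.35 ± 0.11 (SE) and 1.47 ± 0.083 (SE) on the log2 scale as β-Mfn1KO minus β-Mfn2KO. The named genes below this threshold numbered 25. Many named genes were picked by their p against Ctrl, which used the same β-Mfn1KO libraries, so their differences here are a description and not independent support. Miip differed by 1.47 ± 0.20 (SE) (adjusted p = 0.000806), Vamp3 by 0.57 ± 0.08 (SE) (adjusted p = 0.00124) and Zfp991 by 2.24 ± 0.36 (SE) (adjusted p = 0.00556), which are genes of the chromosome 4 stretch. Eno1b differed by −7.78 ± 0.91 (SE) and Gm4735 by −2.16 ± 0.37 (SE). Away from that stretch Yif1b (0.58 ± 0.092 (SE)), Mtfp1 (0.38 ± 0.072 (SE)), Mrpl17 (0.31 ± 0.06 (SE)) and Bad (0.31 ± 0.058 (SE)) were higher in β-Mfn1KO, with adjusted p of 0.00442, 0.0196, 0.0245 and 0.0196. Overlap with Gpr137, given above, makes the value of Bad uncertain here too. Bcl2l11 (−0.36 ± 0.076 (SE)), Slc25a37 (−0.39 ± 0.085 (SE)), Grin2c (−0.76 ± 0.16 (SE)) and Ncoa1 (−0.33 ± 0.064 (SE)) were lower, with adjusted p of 0.0409, 0.0469, 0.0431 and 0.0258. Ins1 and Rbm20 differed by 0.12 ± 0.15 (SE) and 0.0055 ± 0.11 (SE), with adjusted p of 0.754 and 1. The β-Mfn2KO libraries were sequenced at 15110046 to 59533407 counts, so depth differed between these groups.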

How the data were processed

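RNA from islets was sequenced as 151 bp paired-end reads. According to the submitters' processing notes the authors used cutadapt 2.3, FastQC 0.11.8, STAR 2.6.1b, RSEM 1.3.1 and DESeq2 1.26.0 with GRCm38, and the estimated counts per gene were deposited as whole numbers. The strand setting is not given in the sources used here, and the authors' normalized table was not used. All 28632 genes of the table were fitted, with no filter, in edgeR 4.0.16 (R 4.3.3) with TMM scaling and 1 coefficient per group over all 20 libraries, and β-Mfn1KO was tested against Ctrl by the quasi-likelihood test with Benjamini-Hochberg adjustment. Called genes had an adjusted p under 0.05 and a fold over 1.5. Log2 CPM used a prior count of 2. Named genes were all called genes, the 12 genes per direction with the smallest p, a mean of at least 100 and no overlap, a fixed list, and the 2 members of each family with the smallest p. The members and lists were chosen with earlier results of these data known. Alternatives were DESeq2 1.42.0, other scaling and filters, sex, female libraries, replicate numbers and each of 10 libraries left out. On simulated counts for 28632 genes in this comparison, 35, 40, 50 and 49 of 50 genes changed by folds of 1.5, 2, 3 and 4 were recovered, with 6 false calls. Recovery and false calls there meant an adjusted p under 0.05 alone, without the fold threshold. The changed genes were drawn from those above a minimum level. No simulated library was set apart from its group and there was no trend with length, so the stability of the real calls is not shown by it. Positions and lengths are from GENCODE M21 (GRCm38). A few genes that the rule names are not reported here.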

Additional observations from a re-analysis of the deposited data

Results flagged for a closer look

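Of 294 groups of libraries examined, 17 held a library that stood far from the rest of its group, where chance alone gives about 1 in 20. In 10 of the 17 it was a Ctrl library, 7 times the sixth. That library had 18202 normalized counts of Lyz2, 3350 of Cxcl12 and 1180 of Dus1l, and mean log2 CPM of 3.796 in the immune list, 4.25 in the stellate and matrix list, 2.701 in the disallowed genes and 2.079 in the cell cycle list. The first Ctrl library stood apart in Zfp979 (218), the third in Mtfp1 (939) and the fifth in the clock list (5.18). Among β-Mfn1KO libraries the first stood apart in Masp2 (5.58) and the second in Spsb1 (973). The third stood apart in Zfp990 (4.97), Ndufb11 (3442), Rfx6 (4701) and the fusion and fission list (4.843), and the fourth in the autophagy and mitophagy list (6.053).

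The change from Ctrl differed between β-Mfn1KO and β-Mfn2KO for 25 named genes at an adjusted p under 0.05 (edgeR's quasi-likelihood test of the difference, which is the direct contrast of both knockouts). As log2 differences of β-Mfn1KO minus β-Mfn2KO, the engineered genes were at −1.35 (Mfn1) and 1.47 (Mfn2). Near Mfn2 the differences were 1.47 for Miip, 0.57 for Vamp3, −5.77 for Masp2, −7.58 for Zfp990, 2.24 for Zfp991, −2.2 for Angptl7, −0.82 for Camta1, 0.66 for Spsb1, 0.59 for Arhgef16 and 1.0 for Eno1. Its copies differed by −7.78 (Eno1b) and −2.16 (Gm4735). Elsewhere Jtb was at 0.29, Entpd4b at 0.51, Dus1l at 0.33, Yif1b at 0.58, Mtfp1 at 0.38, Mrpl17 at 0.31 and Bad at 0.31. Ncoa1 was at −0.33, Grin2c at −0.76, Bcl2l11 at −0.36 and Slc25a37 at −0.39. The fitted values of Masp2 and Zfp990 rest on few counts and depend on the prior count. Many of the named genes were picked by their p against Ctrl, from the same β-Mfn1KO libraries, so these differences are a description.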

How the results depend on the processing

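The 7 calls ranged from 3 to 21 when 1 library was left out and were 3 in the fit to 10 libraries and 148 in female libraries. Genes at an unadjusted p under 0.05 ranged from 1384 (without the second β-Mfn1KO library) to 3080 (without the third), against 2130. The 25 named genes that differed between β-Mfn1KO and β-Mfn2KO became 58 with DESeq2, 43 in female libraries, 40 with filterByExpr and 15 with the length and GC offsets, and ranged from 11 (without β-Mfn1KO library 1) through 12 and 13 (without library 4 and 2) to 49 (without library 3). Families with a median above 0 ranged from 23 to 28 and genes near Mfn2 at an unadjusted p under 0.05 from 38 to 64 when 1 library was left out. DESeq2 called 8 genes, 4 of the 7 among them, and gave no adjusted p for Masp2, Zfp990 and Gm4735. Reversals were among genes with no call and mostly of values near 0. When 1 library was left out, Slc2a2 ranged from −0.1931 to 0.0215, Pdx1 from −0.0718 to 0.0079, Dnm1l from −0.0067 to 0.0761, Gcg from −0.0228 to 0.3332, Lonp1 from −0.0904 to 0.0399, Nrf1 from −0.0176 to 0.0714, Top1mt from −0.3537 to 0.1141 and Dnaja3 from −0.0179 to 0.0694. Female libraries gave Gcg −0.2736, Sst −0.0947, Top1mt 0.0040 and Angptl4 0.8711, and the length and GC offsets, chosen after the data were seen, gave Gcg −0.0073, Sst −0.0049 and Lonp1 0.0105. The causes of these changes were not tested. Over named genes and alternatives, 1734 values kept their direction and their side of the threshold, 55 newly passed it, 35 no longer did and 26 reversed. Of the family medians 901 moved by less than the spread between libraries and 30 by more.

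Groups share replicate numbers, and the labels do not say what a number marks. The numbers were not treated as a pairing, since not every pair correlated above 0.1. Deviations of same-numbered β-Mfn1KO and Ctrl libraries correlated at 0.175, 0.002, 0.143 and 0.27 across genes, against a mean of −0.029 for other numbers, and 3 of the 4 β-Mfn1KO libraries correlated best with their own number, a hint from the data and not the design. Each same-numbered pair also shares its sex, and the deviations were not adjusted for sex. The part that sex had in these correlations was not tested. With the replicate number as a block, 9 genes were called, among them all of the 7 but Rbm20, 1613 had an unadjusted p under 0.05 and 39 named genes differed between β-Mfn1KO and β-Mfn2KO. In that fit with the block Lyz2 was at 0.26, Cxcl12 at 0.43, Nkx6-1 at −0.0278, Sst at −0.0238, Lonp1 at 0.0316 and Angptl4 at 0.22.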
